A study of Rattus norvegicus with 8 samples.

Results

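Heat shock proteins and their DnaJ partners form the protein folding machinery that every kidney cell uses, and 65 genes of these families were read here on microarrays of rat kidney medulla and cortex. The members are all genes with 1 symbol beginning with Hspa, Hspb, Hspd, Hspe, Hsph, Hsp90 or Dnaj in the platform's annotation, with 1 exclusion fixed by the rule. They make up 65 of the 18166 genes measured, and 41 of them are DnaJ genes. The rule used names only and no measured value. For the 5 members with more than 1 probe set the brightest one was taken. Hspa1a, Hspa1b, Hsp90aa1, Dnajb6 and Dnajc8 have no value here, because their probe sets carry several symbols. Hsp90aa1-ps2 is a pseudogene, and Hspbp1 and Hspbap1 encode proteins that bind heat shock proteins, so these 3 match the rule by spelling only.

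All 8 arrays carry 1 treatment label. Male Wistar rats aged 10 weeks received ethylene glycol every day and vitamin D on alternate days for 1 week, a regimen used to bring about calcium oxalate crystals in rat kidney. The groups are 4 arrays of medulla and 4 of cortex, and RNA came from homogenised tissue. No untreated array was analysed, so a value below shows a level under treatment and not a response to it. The labels do not name animals, so p-values rest on differences from array to array that may be technical. In homogenised tissue, fewer cells of a type and less RNA per cell cannot be told apart.

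HSP70 proteins hold unfolded chains in a cycle driven by ATP. DnaJ proteins, also called HSP40, bring the substrate and trigger ATP hydrolysis through their J domain, while HSP110 proteins exchange the nucleotide. HSP90 matures kinases and steroid receptors, small heat shock proteins keep unfolding proteins soluble, and the chaperonin of Hspd1 and Hspe1 folds proteins inside mitochondria. Each compartment has its own set. The cytosolic genes are driven by the factor HSF1 through heat shock elements, and the endoplasmic reticulum set is driven by the unfolded protein response through endoplasmic reticulum stress elements. The kidney medulla is known for its high salt and urea, and small heat shock proteins and osmolytes are known to protect its cells.

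Promoter sequences from RefSeq, assembly GRCr8, covering 250 bases before to 50 bases after the annotated start, matched 53 of the 65 members. The heat shock element was searched as the pairs GAANNTTC and TTCNNGAA on both strands, which can overlap each other. At least 1 pair lay in 14 of the 53 member promoters (26.4%) and in 15.9% of all 33469 promoters. The longer form, in which GAANNTTC and TTCNNGAA overlap by their shared TTC, lay in 5 of the 53, Dnaja1, Hspa8, Hspd1, Hspe1 and Hsph1, and in 0.798% of all promoters. The endoplasmic reticulum stress element, CCAAT and CCACG with 9 bases of any kind between them, lay in Hspa5, Hsp90b1 and Dnajc3 and in 0.0657% of all promoters, and its second form, ATTGG and CCACG with 1 base between them, in Dnajb11 and in 0.0508% of all. A match is a run of letters and not a shown binding site.

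The promoters of 4 genes with a heat shock pair are shown because their values are described first below, with the matches in capitals. Hspa2 is at chr6:100864192-100864491 on the + strand, Hspb1 at chr12:26432252-26432551 on the - strand, Hspb6 at chr1:94934122-94934421 on the + strand and Hspe1 at chr9:64084077-64084376 on the + strand.
Hspa2: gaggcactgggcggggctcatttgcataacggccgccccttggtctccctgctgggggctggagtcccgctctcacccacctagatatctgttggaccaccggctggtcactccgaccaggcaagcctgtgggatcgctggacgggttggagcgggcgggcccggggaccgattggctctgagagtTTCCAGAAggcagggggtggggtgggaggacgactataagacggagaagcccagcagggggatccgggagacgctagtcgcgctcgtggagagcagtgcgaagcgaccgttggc
Hspb1: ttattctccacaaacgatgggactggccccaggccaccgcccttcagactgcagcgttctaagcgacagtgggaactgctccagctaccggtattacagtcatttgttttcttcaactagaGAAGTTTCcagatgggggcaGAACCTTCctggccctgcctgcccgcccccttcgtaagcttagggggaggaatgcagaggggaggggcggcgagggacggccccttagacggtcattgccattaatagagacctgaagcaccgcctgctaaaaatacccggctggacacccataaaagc
Hspb6: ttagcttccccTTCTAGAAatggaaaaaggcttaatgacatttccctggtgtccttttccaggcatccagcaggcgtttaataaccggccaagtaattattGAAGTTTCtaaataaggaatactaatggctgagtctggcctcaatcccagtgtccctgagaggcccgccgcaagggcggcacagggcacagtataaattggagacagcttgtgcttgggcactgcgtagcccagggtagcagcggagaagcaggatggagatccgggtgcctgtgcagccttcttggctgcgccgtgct
Hspe1: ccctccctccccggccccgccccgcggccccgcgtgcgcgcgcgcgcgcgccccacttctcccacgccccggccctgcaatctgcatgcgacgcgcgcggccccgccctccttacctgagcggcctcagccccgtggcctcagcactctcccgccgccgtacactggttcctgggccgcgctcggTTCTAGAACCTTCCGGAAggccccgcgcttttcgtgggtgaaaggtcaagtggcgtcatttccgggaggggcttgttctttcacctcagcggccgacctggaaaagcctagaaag
The match in Hspa2 begins at position -64 from the annotated start, those in Hspb1 at -129 and -109, and those in Hspb6 at -239 and -149. In Hspe1 the overlapping matches begin between -65 and -55 and form the longer element. The same run lies in the promoter window of Hspd1, the neighbouring gene on the opposite strand. Hspa5 at chr3:38452766-38453065 on the + strand and Dnajb11 at chr11:91672751-91673050 on the - strand show the endoplasmic reticulum element in its first and second form, in capitals.
Hspa5: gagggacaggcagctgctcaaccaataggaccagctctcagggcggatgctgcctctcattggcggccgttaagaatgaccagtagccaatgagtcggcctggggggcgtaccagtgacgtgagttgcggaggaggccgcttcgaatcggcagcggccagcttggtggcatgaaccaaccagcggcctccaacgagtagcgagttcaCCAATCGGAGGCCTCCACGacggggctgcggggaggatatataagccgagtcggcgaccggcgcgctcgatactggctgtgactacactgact
Dnajb11: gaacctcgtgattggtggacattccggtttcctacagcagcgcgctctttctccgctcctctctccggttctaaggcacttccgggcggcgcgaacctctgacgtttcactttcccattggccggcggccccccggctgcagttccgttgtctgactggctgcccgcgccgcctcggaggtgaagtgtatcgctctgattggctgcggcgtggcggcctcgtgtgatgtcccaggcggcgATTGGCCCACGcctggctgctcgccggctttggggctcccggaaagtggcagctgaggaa
The element begins at -43 in Hspa5 and at -10 in Dnajb11, so both lie close to the start.

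Array medians lay between 34.1 and 34.7 intensity units. On medulla replicate 4 and cortex replicate 4, 12.7% and 12.3% of all genes lay at least 0.3 log2 units from the mean of their region, against 2.43% to 7.30% on the other 6 arrays, so both arrays stood apart from the rest. The summed intensity of 6 tubular injury markers was highest on the same arrays, with a range of 545 to 7494 in medulla and of 567 to 6575 in cortex. Of the 6, Havcr1, Lcn2 and Clu were highest on replicate 4 of both regions, while Vcam1, Krt20 and Sox9 were not. On replicate 3 Havcr1 stood at 8.95 in medulla and 7.54 in cortex. On replicates 1 and 2 it ran from 4.54 to 4.80 in medulla and from 4.59 to 5.15 in cortex. No cell type marker passed limma's adjusted p between regions. The 7 proximal tubule markers summed to 5369 to 8875 in medulla and 7630 to 9691 in cortex, and all 7 had lower means in medulla. The 5 collecting duct and inner medulla markers summed to 700 to 2749 in medulla and 601 to 1395 in cortex. The proximal tubule sums of the medulla arrays thus overlapped those of cortex. The 5 leukocyte markers summed to 184 to 378 in medulla and 177 to 258 in cortex, highest on replicate 4 of both. Of the 5 thick ascending limb markers 4, and of the 5 collecting duct and inner medulla markers 3, were lowest on replicate 4 of both regions. The part of these cell types in the replicate 4 values described below was not tested.

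Medulla was set against cortex, the contrast that the labels allow. No member differed between the regions by limma over all genes (0 of 65, and 0% of all genes passed an adjusted p of 0.05). The lowest adjusted p among them was 0.875. Before adjustment, 5 members (7.69%) had a p under 0.05, against 5.35% of all genes. All 5 were lower in medulla, where 2.58% of all genes fell under that threshold, and 0 were higher, against 2.77% of all genes. limma with array weights gave 7 at the unadjusted threshold, with 8.45% of all genes, and a trended robust prior gave 3, with 5.34%, both with 0 at the adjusted one. Without medulla replicate 2 the count was 8, with 9.34% of all genes. It was 3 without cortex replicate 2 and 3 without cortex replicate 3, with 3.27% and 2.80% of all genes. Without these single arrays the share of all genes thus moved the same way. With both replicate 4 arrays left out the count was also 8, but the share of all genes was 5.05%. Of those 8 members, 2 were higher in medulla. The members' median difference was -0.03 log2 units, against -0.01 over all genes, and 41 of 65 (63.1%) were negative, against 54.2% of all genes. The median was -0.014 without medulla replicate 1 and -0.015 without cortex replicate 4.

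**Figure D1:**
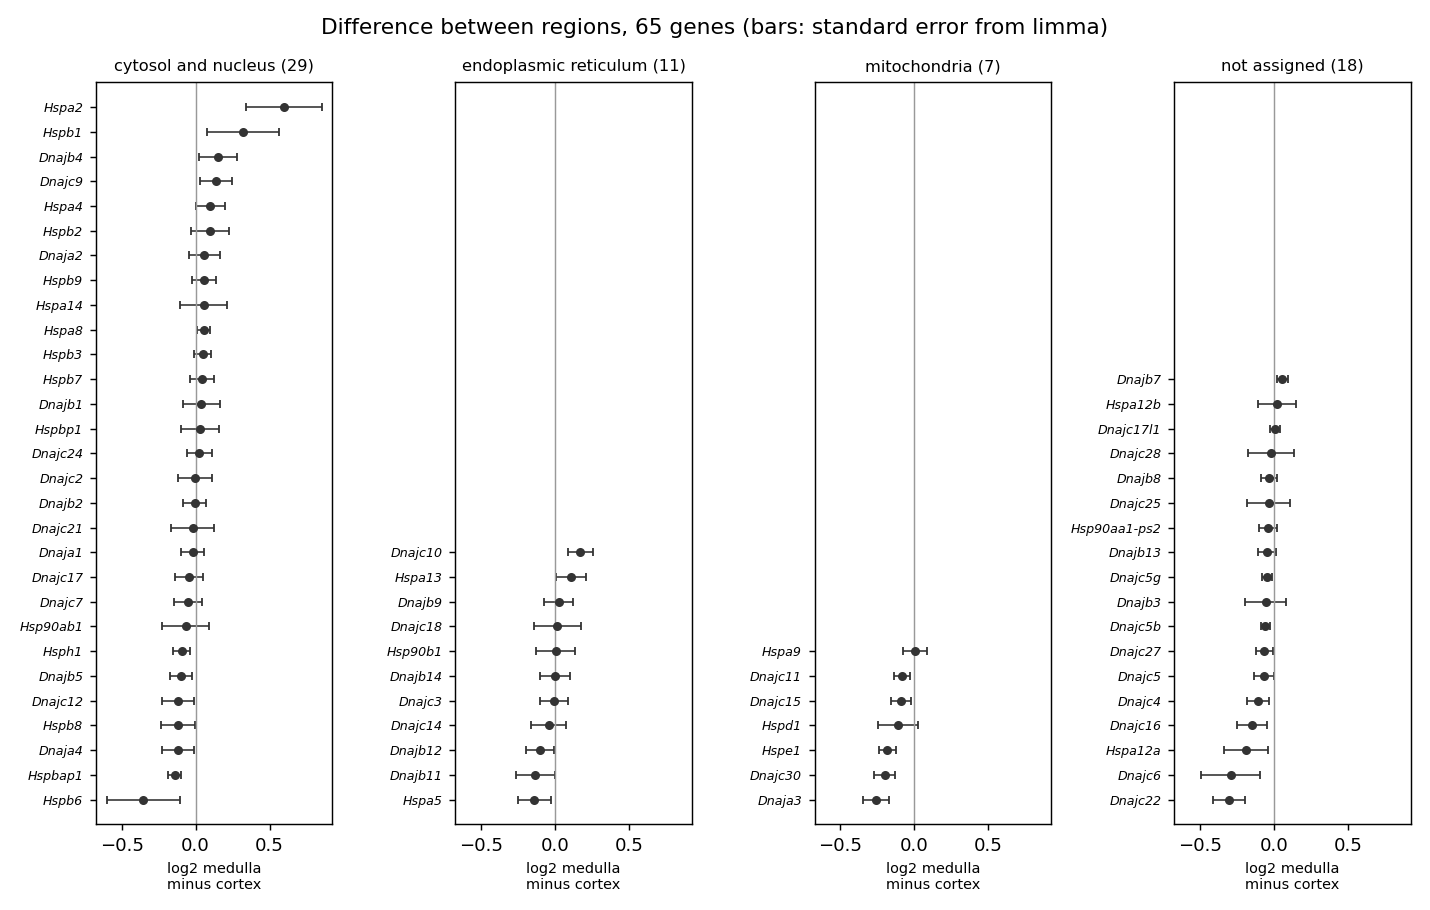
Each point is a gene's log2 difference, medulla minus cortex, with limma's standard error as the bar, for the 65 genes in 4 panels by compartment (4 arrays per region). Hspa2 lies farthest right at 0.60, Hspb6 farthest left at -0.35, and 6 of the 7 mitochondrial genes lie left of 0.

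Mitochondrial chaperones held 3 of the 5 members with an unadjusted p under 0.05, and 6 of the 7 had a lower mean in medulla, with a median difference of -0.11. These are 42.9% and 85.7% of the 7, against 5.35% and 54.2% of all genes. Hspe1, the co-chaperonin that caps the folding chamber (probe set 17859277), stood at 8.93, 8.91, 9.03 and 9.10 log2 intensity on medulla replicates 1 to 4, against 9.11, 9.25, 9.12 and 9.23 on cortex replicates 1 to 4. Every medulla array lay below every cortex array, by a margin that was narrow between medulla replicate 4 and cortex replicate 1. The difference was -0.18 ± 0.06 (SE), with limma's unadjusted p = 0.0142 and adjusted p = 0.875. By the exact two-sided permutation test p was 0.0286, the smallest that 4 against 4 arrays can give, and with any 1 array left out the difference lay between -0.22 and -0.15. Regions without overlap were seen in 3 members (4.62%), against 2.83% of all genes. All 3 were lower in medulla, against 1.74% of all genes, and 0 were higher, against 1.10%. The others were Hspbap1 and Dnajc5b, described further on.

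Dnaja3, the mitochondrial DnaJ protein also known as Tid1, stood at 7.32, 7.56, 7.36 and 7.14 in medulla, against 7.56, 7.73, 7.62 and 7.51 in cortex. Medulla replicate 2 reached the cortex values, so the regions overlapped. The difference was -0.26 ± 0.09 (SE, limma's unadjusted p = 0.0223, adjusted p = 0.875, exact permutation p = 0.0571). Dnajc30, which is tied to ATP synthase, measured 6.57, 6.62, 6.35 and 6.43 in medulla and 6.69, 6.73, 6.76 and 6.596 in cortex, a difference of -0.20 ± 0.07 (SE, limma's unadjusted p = 0.02, adjusted p = 0.875). Medulla replicate 2 again overlapped the lowest cortex array. The 3 probe sets of Dnajc30 gave negative differences, at -0.20 for the one used and -0.17 for each of the others, which hold identical values.

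Hspd1, the chaperonin barrel that shares its promoter region with Hspe1, was lowest on medulla replicate 1. It measured 8.51, 8.97, 9.20 and 8.90 in medulla and 8.90, 9.08, 9.04 and 9.001 in cortex, a difference of -0.11 ± 0.13 (SE). Without medulla replicate 1 the sign turned, to 0.02. The second probe set of Hspd1 gave a difference of -0.16. Hspa9, the mitochondrial HSP70 called mortalin, had the same mean in both regions, at 10.02 ± 0.17 for medulla and 10.02 ± 0.05 for cortex (SD, n = 4 each). Its medulla values ran from 9.90 to 10.27 and its cortex values from 9.97 to 10.09. Dnajc11, a DnaJ protein of the mitochondrial membranes, and Dnajc15, which works at the inner membrane import motor, differed by -0.08 ± 0.05 and -0.09 ± 0.07 (SE), and their regions overlapped.

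Among the cytosolic HSP70 genes, Hspa2 had the largest difference of all 65 members. Hspa2, best known as the HSP70 of the male germ line (probe set 17816804), stood at 7.12, 6.64, 7.13 and 7.60 on medulla replicates 1 to 4 and at 6.73, 6.26, 6.11 and 7.01 on cortex replicates 1 to 4. The replicate 4 arrays were highest in both regions, and medulla replicate 2 lay below cortex replicates 1 and 4. Medulla averaged 7.12 ± 0.39 and cortex 6.53 ± 0.42 (SD, n = 4 each). The difference of 0.60 ± 0.26 (SE) missed the test (limma's unadjusted p = 0.0507, adjusted p = 0.875, exact permutation p = 0.0857). It lay between 0.44 and 0.76 with any 1 array left out.

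Hspa8, the constitutive HSP70 of the cytosol, was nearly flat. It measured 11.71, 11.62, 11.69 and 11.78 in medulla and 11.66, 11.58, 11.68 and 11.67 in cortex, a difference of 0.05 ± 0.04 (SE, 0.03 to 0.08 with any 1 array left out), and its range was 1.12-fold within medulla and 1.08-fold within cortex. Another probe set of Hspa8 also lists a pseudogene and was not used. Whether near copies of the gene add to the signal of the one used was not tested. Hspa4 and Hsph1, the HSP110 nucleotide exchange factors, differed by 0.10 ± 0.10 and -0.09 ± 0.06 (SE), within 0.03 to 0.15 and -0.13 to -0.06 with any 1 array left out. Hsph1 ran from 7.46 to 7.68 in medulla and from 7.62 to 7.70 in cortex, and Hspa4 from 8.18 to 8.56 in medulla and from 8.16 to 8.35 in cortex. Hspa14, an HSP70 that works at the ribosome with Dnajc2, was highest on replicate 4 in both regions, at 6.19 in medulla and 6.14 in cortex. Its other values ran from 5.58 to 6.03 in medulla and from 5.66 to 5.79 in cortex.

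Hsp90ab1, the constitutive cytosolic HSP90, varied more between arrays of a region than between regions. It stood at 8.58, 8.54, 8.72 and 9.18 in medulla and 8.60, 8.73, 8.92 and 9.04 in cortex, a difference of -0.07 ± 0.16 (SE). The sign turned to a value within 0.01 of 0 when medulla replicate 2 or cortex replicate 4 was left out. Replicate 4 was the highest array of each region. The distant HSP70 relatives Hspa12a and Hspa12b each varied in 1 region, Hspa12a from 6.23 to 6.93 in cortex and Hspa12b, which is known from endothelium, from 5.25 to 5.88 in medulla. The second, dimmer probe set of Hspa12a ranged over 0.09 log2 units in cortex, against 0.70 for the one used.

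**Figure D2:**
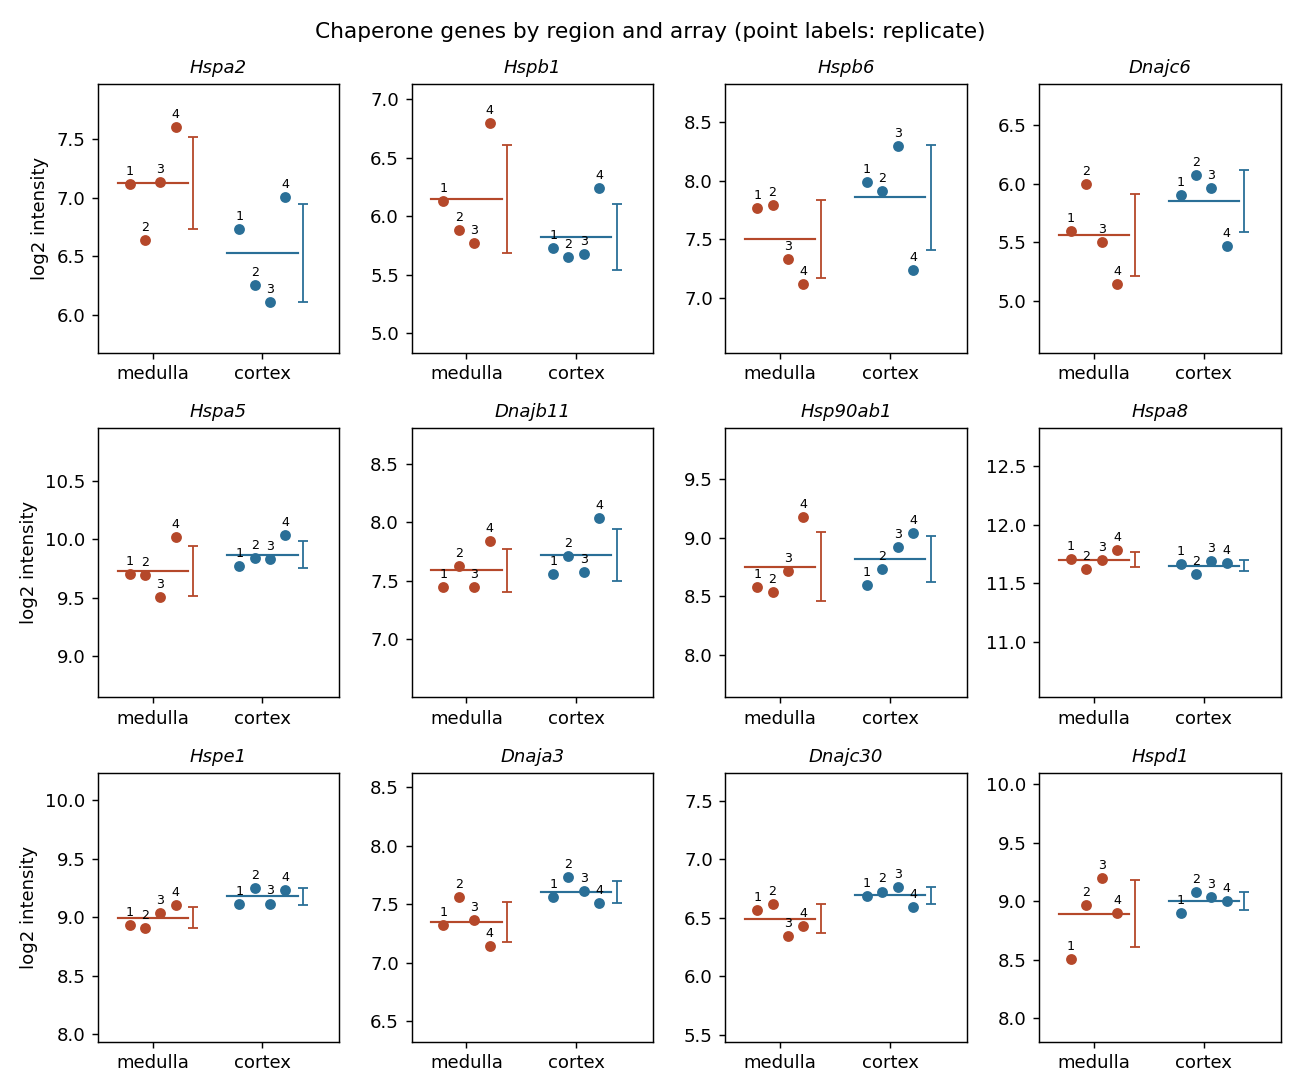
Log2 intensity of 12 genes on each array, medulla left of cortex, with points numbered by replicate, the line at the mean and the bar showing ± 1 SD (n = 4). Every panel spans the same log2 distance, so Hspa8 is visibly flat. In both regions replicate 4 is highest for Hspa2, Hspb1, Hspa5, Dnajb11 and Hsp90ab1 and lowest for Hspb6, Dnajc6 and Dnaja3.

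Small heat shock proteins held the members with the widest spread between arrays of the same region, Hspb1 upward and Hspb6 downward on replicate 4. Hspb1, the stress-induced small heat shock protein that binds actin filaments and unfolding proteins (probe set 17676952), measured 6.13, 5.88, 5.77 and 6.80 in medulla, against 5.73, 5.65, 5.67 and 6.24 in cortex. Replicate 4 was highest in both regions, and medulla replicate 1 came next. The range was 2.04-fold in medulla and 1.5-fold in cortex, and without replicate 4 it was 0.36 and 0.07 log2 units, against 1.03 and 0.59 with it. The difference between regions was 0.32 ± 0.24 (SE, limma's adjusted p = 0.879), with 0.10 without medulla replicate 4 and 0.46 without cortex replicate 4.

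Hspb6, the small heat shock protein of smooth and striated muscle also called HSP20 (probe set 17615378), ran the other way. It stood at 7.77, 7.79, 7.33 and 7.12 in medulla and 7.99, 7.91, 8.30 and 7.23 in cortex. Replicate 4 was the lowest array of each region, and the range was 1.596-fold in medulla and 2.09-fold in cortex. Without cortex replicate 4 the cortex range was 0.39 log2 units, against 1.06 with it. The difference was -0.35 ± 0.25 (SE, limma's adjusted p = 0.878), and the regions overlapped. It was -0.56 without cortex replicate 4 and -0.21 without cortex replicate 3. The summed intensity of the 3 measured of 5 smooth muscle markers, Myh11, Tagln and Des, was highest on replicate 4 of each region and lay within 289 to 549 in medulla and 251 to 359 in cortex. Tagln and Des were highest on replicate 4 of both regions, while Myh11 was lowest on medulla replicate 4, at 5.70, and stood at 5.83 on cortex replicate 4, within 5.65 to 6.31 in cortex. Their part in the values of Hspb6 was not tested.

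Hspb2, a partner of Hspb3 in muscle, was likewise lowest on replicate 4, at 5.49 in medulla and 5.33 in cortex, against 5.60 to 5.91 on the other medulla arrays and 5.61 to 5.79 on the other cortex arrays. Hspb8, which works with Bag3 in selective autophagy, was lowest on medulla replicate 4, at 4.98, and highest on cortex replicate 4, at 5.58. Hspb3, Hspb7, a cardiac and skeletal muscle member, and Hspb9, known from testis, had ranges of at most 0.28 log2 units in medulla and 0.32 in cortex. Hspb3 and Hspb7 lay close to the 30th percentile of all genes, 4.83 log2 units. The 4 measured skeletal muscle markers summed to 136 to 152 in medulla and 144 to 151 in cortex. Hspbap1, a protein that binds Hspb1, was lower on every medulla array, at 5.85, 5.92, 6.02 and 5.97, against 6.04, 6.09, 6.11 and 6.09 in cortex. Its difference of -0.14 ± 0.04 (SE) had the smallest limma p of all members (unadjusted p = 0.011, adjusted p = 0.875, exact permutation p = 0.0286) and ranged from -0.17 to -0.11 with any 1 array left out. Hspbp1, which releases the nucleotide from HSP70, overlapped, with a difference of 0.03 ± 0.13 (SE).

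In the endoplasmic reticulum 0 of 11 members reached an unadjusted p of 0.05, against 5.35% of all genes, and the median difference was 0.00. Without medulla replicate 4, 2 of them did, against 4.76% of all genes. Of the 4 with an endoplasmic reticulum stress element, Hspa5, Hsp90b1 and Dnajb11 were highest on replicate 4 of both regions, against 17.0% of all genes. Hspa5, the HSP70 of this compartment called BiP (probe set 17761597), stood at 9.70, 9.69, 9.51 and 10.02 in medulla, against 9.77, 9.84, 9.83 and 10.04 in cortex. Hsp90b1, its HSP90 called GRP94, measured 9.32, 9.38, 9.63 and 9.88 in medulla and 9.41, 9.55, 9.50 and 9.74 in cortex. Dnajb11, the DnaJ partner of BiP for newly made chains, gave 7.45, 7.63, 7.45 and 7.84 in medulla and 7.56, 7.71, 7.57 and 8.04 in cortex. These ranges stayed under 1.5-fold in both regions, and the differences between regions were -0.14 ± 0.11 for Hspa5, 0.00 ± 0.13 for Hsp90b1 and -0.13 ± 0.13 for Dnajb11 (SE). Leaving out 1 array moved that of Hspa5 between -0.24, without medulla replicate 4, and -0.06, without medulla replicate 3. That of Dnajb11 moved between -0.22, without medulla replicate 4, and -0.03, without cortex replicate 4.

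Dnajc3, the fourth gene with the element, which also restrains the kinase PERK, was lowest on medulla replicate 4, at 7.32, against 7.37 to 7.76 on the other medulla arrays. In cortex it was highest on replicate 4, at 7.55, against 7.48 to 7.52 on the others. Dnajc10, the disulfide reductase ERdj5, had the largest difference of the compartment, 0.17 ± 0.09 (SE, limma's adjusted p = 0.875, 0.11 without medulla replicate 3), with 8.23, 8.07, 8.35 and 8.03 in medulla and 8.05, 8.03, 8.08 and 7.83 in cortex. The membrane-bound Dnajb12, Dnajb14 and Dnajc18 were lowest on replicate 4 in both regions, as was Dnajc10. These are 4 of the 11 members of the compartment, against 16.0% of all genes. Highest on replicate 4 in both regions were 3 of the 11, against 17.0%. Dnajc18 measured 7.18, 7.35, 7.53 and 7.00 in medulla and 7.43, 7.38, 7.33 and 6.86 in cortex. So members of 1 compartment lay on both sides on the same arrays. Dnajb9, a DnaJ protein of the degradation pathway, Hspa13, a small HSP70, and Dnajc14 differed by at most 0.11 log2 units in size between regions.

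Of the 41 DnaJ genes, 31 had a lower mean in medulla, with a median difference of -0.05, and 3 reached an unadjusted p under 0.05. These are 75.6% and 7.32% of the DnaJ genes, against 54.2% and 5.35% of all genes. With 1 array left out, 24 to 32 had a lower mean. The count under 0.05 was 1 without cortex replicate 2 or without cortex replicate 3, and 5 without medulla replicate 2, where the share of all genes was 3.27%, 2.80% and 9.34%. Beside the 2 mitochondrial ones this was Dnajc22, a membrane-spanning member whose fly counterpart is needed for endocytosis. It measured 6.86, 6.93, 6.61 and 6.62 in medulla and 6.85, 7.08, 7.25 and 7.04 in cortex, a difference of -0.30 ± 0.11 (SE, limma's unadjusted p = 0.0241, adjusted p = 0.875, exact permutation p = 0.0857). Cortex replicate 1 lay among the medulla values.

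Among the general cytosolic DnaJ partners, 0 reached an unadjusted p of 0.05, against 5.35% of all genes. Dnaja1 ran from 9.27 to 9.61 in medulla and from 9.35 to 9.58 in cortex, and Dnaja2 from 7.34 to 7.87 in medulla and from 7.48 to 7.53 in cortex. Dnajb1, the stress-inducible HSP40, measured 6.56, 6.74, 6.32 and 6.25 in medulla and 6.42, 6.59, 6.22 and 6.49 in cortex, so replicate 4 was lowest in medulla and second highest in cortex. Dnajb4 was highest on medulla replicate 3, at 7.32, against 6.80 to 6.88 on the other medulla arrays and 6.595 to 6.94 in cortex. Its second, dimmer probe set ranged over 0.17 log2 units in medulla, against 0.52 for the one used. Dnajc6, the auxilin that strips clathrin from vesicles, was the 1 DnaJ gene that varied at least 1.5-fold in both regions. It stood at 5.60, 6.00, 5.51 and 5.14 in medulla and 5.90, 6.08, 5.96 and 5.47 in cortex, with replicate 4 lowest in each, and its ranges without replicate 4 were 0.49 and 0.18 log2 units. Dnajc25 was highest on replicate 4, at 6.70 in medulla and 6.87 in cortex, and Dnajc28 lowest, at 4.99 in medulla and 4.95 in cortex.

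The other cytosolic and nuclear DnaJ genes had ranges of at most 0.54 log2 units within a region and differences of at most 0.14 in size. They are Dnaja4, Dnajb2, Dnajb5, Dnajc2, Dnajc7, Dnajc9, a histone co-chaperone, Dnajc12, Dnajc17, Dnajc21 and Dnajc24, which serves diphthamide synthesis. Of the members not placed in a compartment, Dnajb13, Dnajc4, Dnajc5, Dnajc16 and Dnajc27 had ranges of at most 0.44 and differences of at most 0.15 in size. The remaining 7, Dnajb3, Dnajb7, Dnajb8, Dnajc5b, Dnajc5g, Dnajc17l1 and the pseudogene Hsp90aa1-ps2, lay below the 30th percentile of all genes in mean signal, where a fold is compressed. Several of them are known from testis. Dnajc5b did not overlap between regions, at 4.67 to 4.69 in medulla and 4.71 to 4.79 in cortex, a difference of -0.06 ± 0.03 (SE).

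The series' design text names a 2-fold change in analyses of cortex and medulla, taken in both, without naming the arrays compared. By the distance between the highest and the lowest array, 0 of 65 members reached 2-fold in both regions, against 2.21% of all genes. In medulla 1 member did, Hspb1 (1.54%), against 3.80% of all genes, and in cortex 1, Hspb6 (1.54%), against 3.60%. Hspb1 was under 2-fold without medulla replicate 3 or 4, and Hspb6 without cortex replicate 3 or 4. With quantile normalization or median centring, Hspb1 ranged over 0.99 and 0.98 log2 units in medulla, just under 2-fold. At 1.5-fold, 8 members passed in medulla (12.3%, against 15.1% of all genes), 7 in cortex (10.8%, against 11.4%) and 4 in both (6.15%, against 8.12%). Those 4 were Hspa2, Hspb1, Hspb6 and Dnajc6. Hspb1 passed in cortex by a narrow margin, at 1.5002-fold. With quantile normalization or median centring it ranged over 0.572 and 0.576 log2 units there, just under 1.5-fold. Of the 4, Hspa2, Hspb1 and Hspb6 carry a heat shock pair in the promoter. A pair lay in 26.4% of the 53 member promoters and in 15.9% of all promoters, and its part in the ranges was not tested. The 5 members with the longer element ranged over 0.08 to 0.22 log2 units in cortex and 0.16 to 0.69 in medulla, and 0 of them passed 1.5-fold in both regions. The median range of all members was 0.36 in medulla and 0.26 in cortex, against 0.25 and 0.21 over all genes, or 0.35 and 0.28 over the genes above the 30th percentile of signal.

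**Figure D3:**
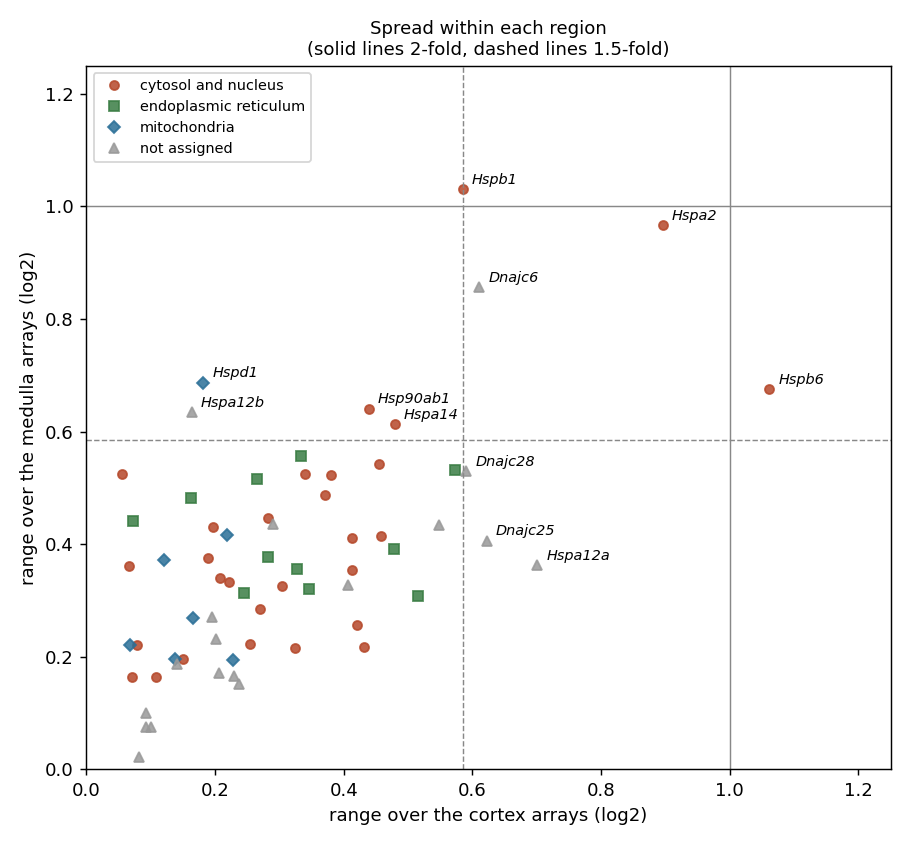
Each point is 1 of the 65 genes, with its range (highest minus lowest array) over the 4 cortex arrays on the x axis and over the 4 medulla arrays on the y axis, in log2 units, marked by compartment. Hspb1 passes the 2-fold line in medulla and Hspb6 in cortex, no gene passes it in both, and the labelled genes are those past 1.5-fold in at least 1 region.

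Replicate 4 was the highest array of both regions in 16 members (24.6%), against 17.0% of all genes, and the lowest of both in 12 (18.5%), against 16.0%. The first 16 held Hspa2, Hspa5, Hspa14, Hsp90ab1, Hsp90b1, Hspb1, Hspb9, Hspbp1, Dnajb3, Dnajb5, Dnajb11, Dnajc2, Dnajc5, Dnajc9, Dnajc25 and Dnajc27. The other 12 held Hspb2, Hspb3, Hspb6, Hspa12a, Dnaja3, Dnaja4, Dnajb12, Dnajb14, Dnajc6, Dnajc10, Dnajc18 and Dnajc28. Medulla replicate 4 lay at least 0.3 log2 units from the mean of its region in 8 members (12.3%), against 12.7% of all genes. Cortex replicate 4 did so in 11 members (16.9%), against 12.3% of all genes, and medulla replicate 3 in 7 (10.8%), against 7.30%. On each other array 0 to 2 members did. The 7 on medulla replicate 3 were Hspd1, Dnaja2, Dnajb4 and Dnajc21, above the mean of medulla, and Hspb1, Hspa12b and Hspbp1, below it.

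**Figure D4:**
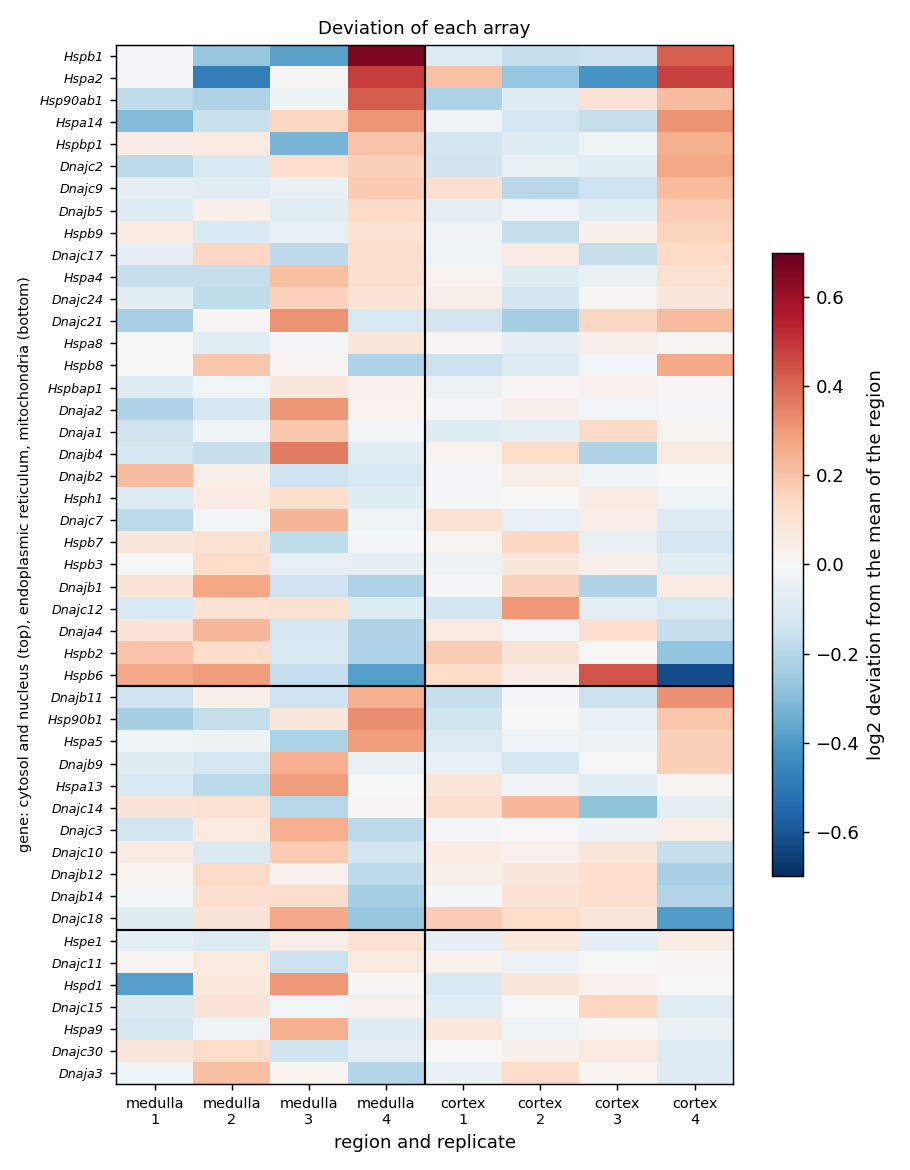
Colour shows each array's log2 deviation from the mean of its region for the 47 genes with a compartment, medulla arrays left of cortex arrays, with rows sorted within a compartment by the summed deviation of the replicate 4 arrays. Red marks above and blue below the mean, and Hspb1 and Hspa2 are the reddest and Hspb6 the bluest on replicate 4.

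Of 7 further lists, from the folding pathways and the tonicity response, with 69 of 74 genes measured, 0 genes passed limma's adjusted p. An unadjusted p under 0.05 was reached in 1 list only, the tonicity response, where 4 of 5 measured genes passed, all higher in medulla, against 2.77% of all genes. The lists were chosen with earlier results of these data known, so this count is a description and not an independent test. The 4 genes include Slc5a3, the inositol importer, at 8.24, 7.92, 8.66 and 8.50 in medulla and 8.12, 6.96, 7.01 and 7.06 in cortex, a difference of 1.04 ± 0.29 (SE, limma's adjusted p = 0.875). The urea transporter Slc14a2, which is also among the collecting duct markers, differed by 1.53 ± 0.32, and the factor Nfat5, which drives the tonicity response, by 0.78 ± 0.24 (SE, limma's adjusted p = 0.875 for both). Cryab, the small heat shock protein αB-crystallin, which the name rule leaves out, ran from 9.11 to 10.41 in medulla and measured 10.01, 9.71, 8.97 and 8.78 in cortex. Its difference was 0.46 ± 0.36 (SE, limma's adjusted p = 0.88), and 0.27 without cortex replicate 4 or 0.71 without medulla replicate 3. Its range passed 2-fold in both regions, but was 0.59 log2 units in medulla without medulla replicate 3.

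The HSF factors and their binding protein (4 genes) and the cytosolic co-chaperones (17 genes) had median differences of -0.08 and 0.02, with 0 genes at 2-fold within either region. Hsf1, the master factor of the heat shock response, measured 6.16, 6.00, 5.83 and 6.35 in medulla and 6.16, 6.02, 6.12 and 6.38 in cortex, highest on replicate 4 of both. Fkbp4, a co-chaperone of HSP90 for steroid receptors, differed by -0.19 ± 0.09 (SE, limma's adjusted p = 0.875). The 8 subunits of the cytosolic chaperonin TRiC had a median difference of 0.01, and 7 of the 8 were highest on replicate 4 of both regions, against 17.0% of all genes. Cct4 is an example, with 7.67, 7.59, 7.90 and 8.03 in medulla and 7.70, 7.67, 7.72 and 8.17 in cortex. Among 10 genes of mitochondrial protein quality control 0 passed 2-fold, and their median difference was -0.02.

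Of 23 genes for folding in the endoplasmic reticulum and the unfolded protein response, 12 were highest on replicate 4 of both regions, against 17.0% of all genes, and 1 passed 2-fold in both. This was Atf3, a stress-induced transcription factor, with 5.54, 5.78, 5.89 and 7.73 in medulla and 5.66, 5.60, 5.51 and 8.01 in cortex. Without replicate 4 its ranges were 0.35 log2 units in medulla and 0.14 in cortex, against 2.19 and 2.50 with it. Atf4, the factor made when PERK is active, measured 8.50, 8.63, 8.50 and 9.05 in medulla and 8.54, 8.49, 8.39 and 9.35 in cortex. Herpud1, a degradation factor of the same response, ran the other way and was lowest on replicate 4, at 7.44 in medulla and 7.45 in cortex, against 7.65 to 8.22 and 7.91 to 8.36 on the other arrays. Ddit3, of the same list, was lowest on medulla replicate 4, at 5.62, and stood at 5.72 on cortex replicate 4, within 5.55 to 6.03 in cortex. Xbp1 was highest on replicate 1 of both regions, at 9.79 in medulla and 9.65 in cortex. The chaperones Hspa5, Hsp90b1 and Dnajb11 described above lay highest on the same arrays as Atf3 and Atf4, with smaller ranges than Atf3. In cortex their ranges were also smaller than that of Atf4, at 0.96 log2 units. In medulla Hsp90b1 and Atf4 both ranged over 0.56 log2 units. Whether these values share a cause was not tested.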

How the data were processed

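The authors deposited 1 linear intensity per probe set and array. RMA and Affymetrix Expression Console are named per the submitters' processing notes, without versions. Array medians and lower quartiles were nearly equal, so values were read as already normalized between arrays, and log2 was taken with no pseudocount. Detection calls were not used here. Of 29870 probe sets, 18511 have 1 symbol in the platform's annotation, 575 several and 10784 none given here. The brightest probe set of each gene gave 18166 genes, with no filter on dim genes, and all 65 members matched the RefSeq table of GRCr8 by Entrez identifier with the same symbol. Region was tested with limma 3.58.1 in R 4.3.3 (lmFit, eBayes, Benjamini-Hochberg over all genes) and tested on simulated data. A range is the highest minus the lowest log2 value in a region. Permutation tests are exact and two-sided. Figures used matplotlib 3.10.9.

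Members and lists were chosen with earlier results of these data known. Genes were named by rule, as the 10 members with the smallest p, the 12 with the largest smaller range and 22 fixed ones, which gave 34, with up to 3 by range and 2 by p of each further list. Other members are named to account for all 65. Ddit3 and Xbp1 were added outside the rule, because they ran differently from Atf3 and Atf4. Compartments came from textbook knowledge. Alternatives were quantile normalization, median centring, the mean of probe sets, genes up to the 30th percentile left out, each array or both replicate 4 arrays left out, a trended robust prior, array weights, an adjusted p of 0.1 and ranges of 1.5-fold or 3-fold. Replicate numbers follow accession order and were not used as pairs in any test. The counts for replicate 4 of both regions match a medulla and a cortex array by this number alone. The labels do not say whether a medulla and a cortex array come from the same animal, so unpaired tests may leave out a pairing.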

Additional observations from a re-analysis of the deposited data

Results flagged for a closer look

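Among the 34 members named by rule, 1 array lay far from the other 3 of its region in 4 of 68 groups of 4 arrays. Chance gives about 1 in 20 for genes not picked by their values. Some of the 34 were picked by range or p in these same data, so the 2 rates cannot be compared as a test. Hspb1 was high on cortex replicate 4, at 6.24 log2 intensity against a next highest value of 5.73. Dnajc18 was low on cortex replicate 4, at 6.86 against a next lowest value of 7.33. Dnajb4 was high on medulla replicate 3, at 7.32 against 6.88, while its second, dimmer probe set ranged over only 0.17 log2 units in medulla. Dnajc5b was low on medulla replicate 4, at 4.67 against 4.69, a gap in a gene of dim signal.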

How the results depend on the processing

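The count of 0 members at the adjusted p held in all 16 alternatives run. At an unadjusted p under 0.05 the count of 5 members became 8 with both replicate 4 arrays left out, against 5.05% of all genes. Of these 8, 2 were higher in medulla. The count was 3 with a trended robust prior, against 5.34% of all genes, and lay between 3 and 8 with 1 array left out. The members' median difference lay between -0.048 and -0.014 with 1 array left out. Members at 2-fold within cortex were 0 with both replicate 4 arrays left out, 7 at 1.5-fold, 0 at 3-fold and 0 to 1 with 1 array left out. Within medulla they were 0 with quantile normalization, 0 with median centring, 0 with both replicate 4 arrays left out, 8 at 1.5-fold, 0 at 3-fold and 0 to 1 with 1 array left out. In both regions 4 passed at 1.5-fold, with Hspb1 barely past it in cortex, and 0 in every setting that kept the 2-fold threshold. Of 388 refits of 26 genes named singly, 385 kept their direction and side of the threshold. No gene of all measured passed the adjusted p in any refit, so only the direction could change. The 26 include Cryab, Nfat5, Slc14a2 and Slc5a3, which are not members. Some named members with very small differences were not among them, such as Hsp90b1 (0.0040), Dnajc3 (-0.0044) and Hspa9 (0.0036). Hspd1 turned to 0.018 without medulla replicate 1 and lay between -0.21 and 0.018 over the left-out arrays, and Hsp90ab1 turned to 0.0040 without cortex replicate 4 and 0.0038 without medulla replicate 2, from a low of -0.21. The causes were not tested. No paired analysis was possible because the labels give the regions no shared replicate numbers. The number of arrays and signals near the array floor limit what can be seen.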
